A study of Mus musculus with 8 samples.

Results

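The genes described are 31 genes of the smooth muscle contractile program, the proteins that make, anchor and control the contractile filaments of smooth muscle, with the transcriptional regulators SRF and myocardin that drive them. They were taken by symbol from a list of names, with no threshold on the measured values but with earlier results of these data known, and all 31 of the 31 were measured, among 22180 genes in all. The values are log2 probe-set values from 1-colour arrays of dissected kidneys of 8 mouse embryos at E14.5, all of 1 litter. In 4 embryos, genotype Grb2 UB-cKO and here called Grb2_cKO, Grb2 had been knocked out specifically in the ureteric tissue, the epithelial tree that becomes the collecting ducts. The other 4 were wild-type controls. Each array held the pooled kidneys of 1 embryo. Neither the Cre driver nor the alleles and strain are stated in the sources used here. The labels name no manipulation of a smooth muscle gene.

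As background, smooth muscle contracts when calcium activates myosin light chain kinase, which phosphorylates the regulatory light chain and lets myosin pull on actin filaments that are fixed to dense bodies and to the cell membrane. Serum response factor (SRF) binds CArG boxes in the promoters of many of these genes, and myocardin, a coactivator restricted to cardiac and smooth muscle, binds SRF and raises their transcription. In the developing urinary tract, smooth muscle forms from mesenchyme around the ureter and in the walls of the renal vessels. GRB2 is an adaptor that couples receptor tyrosine kinases to the RAS and ERK cascade.

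Grb2 itself stood at 8.36, 8.17, 8.22 and 8.06 in the Grb2_cKO kidneys and at 8.68, 8.65, 8.61 and 8.66 in the controls. The groups did not overlap (log2 fold change -0.45, SE 0.07, limma adjusted p = 0.0017). Whether its probe set lies inside the deleted part of the gene is unstated. The kidney genes Pax2, Pax8 and Wt1 (Wt1 named after its values were seen) were at 9.22 or above on every array, so the defining markers of the labelled tissue were present. Array medians ran from 6.61 to 6.72, and correlations over genes were 0.975 to 0.989 between the groups and at least 0.991 within them. Sex was not balanced. Averaged over Uty, Kdm5d and Eif2s3y, Y-linked signal stood at 9.94 to 10.1 in every Grb2_cKO embryo and at 9.94 in 1 control, replicate 3, against 4.09, 4.24 and 4.20 in control replicates 1, 2 and 4. The smooth muscle genes that passed are therefore also given with this mean as a covariate in the fit. Only control replicate 3 shares the Y-linked signal of the Grb2_cKO embryos, so the covariate estimates rest largely on that 1 control. Myocd stood at 0.63 with the covariate and at 0.62 with that embryo as the only control. Its SE was 0.18 without the covariate and 0.27 with it. A call can be lost without a smaller difference, as for Smtn (0.50 without and 0.53 with the covariate). Other differences shrank with it, as for Myocd (0.94 and 0.63), Myl9 (0.50 and 0.35) and Tpm2 (-0.36 and -0.18). Under the covariate Grb2 itself stood at -0.40 and did not pass (limma adjusted p = 0.10). In RNA of a whole organ, a change in the number of cells of a type and a change of RNA per cell cannot be told apart.

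Of the 31 genes, 9 rose in Grb2_cKO kidneys, 1 fell and 21 did not pass the threshold (limma, Benjamini-Hochberg adjusted p under 0.05 over all genes). Those that rose were Myocd, Aoc3, Pdlim3, Pdlim7, Myl9, Smtn, Mrvi1, Casq2 and Pln, and Tpm2 fell. The share called in either direction, 32.3%, was near the 28.1% of all 22180 genes. The share called higher was 29.0%, beside 13.7% of all genes, and the background for lower calls was 14.3%. The median log2 fold change of the 31 genes was 0.19, beside 0.01 over all genes, and was 0.10 without control replicate 4 and 0.11 with the Y-linked covariate. For 11 of the 31 genes every Grb2_cKO kidney lay on one side of every control, 10 of them higher in Grb2_cKO (Csrp1 beside the 9 that rose) and 1 lower (Tpm4), where 31.2% of all genes did not overlap and 15.2% were higher without overlap. With the Y-linked covariate 1 of the 10 calls remained, Mrvi1 (log2 fold change 0.60, adjusted p = 0.0421), and 5.62% of all genes passed. In each of the 8 fits that leave out 1 embryo, 6 of the 10 calls held: Myocd, Aoc3, Smtn, Myl9, Pdlim7 and Mrvi1.

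**Figure D1:**
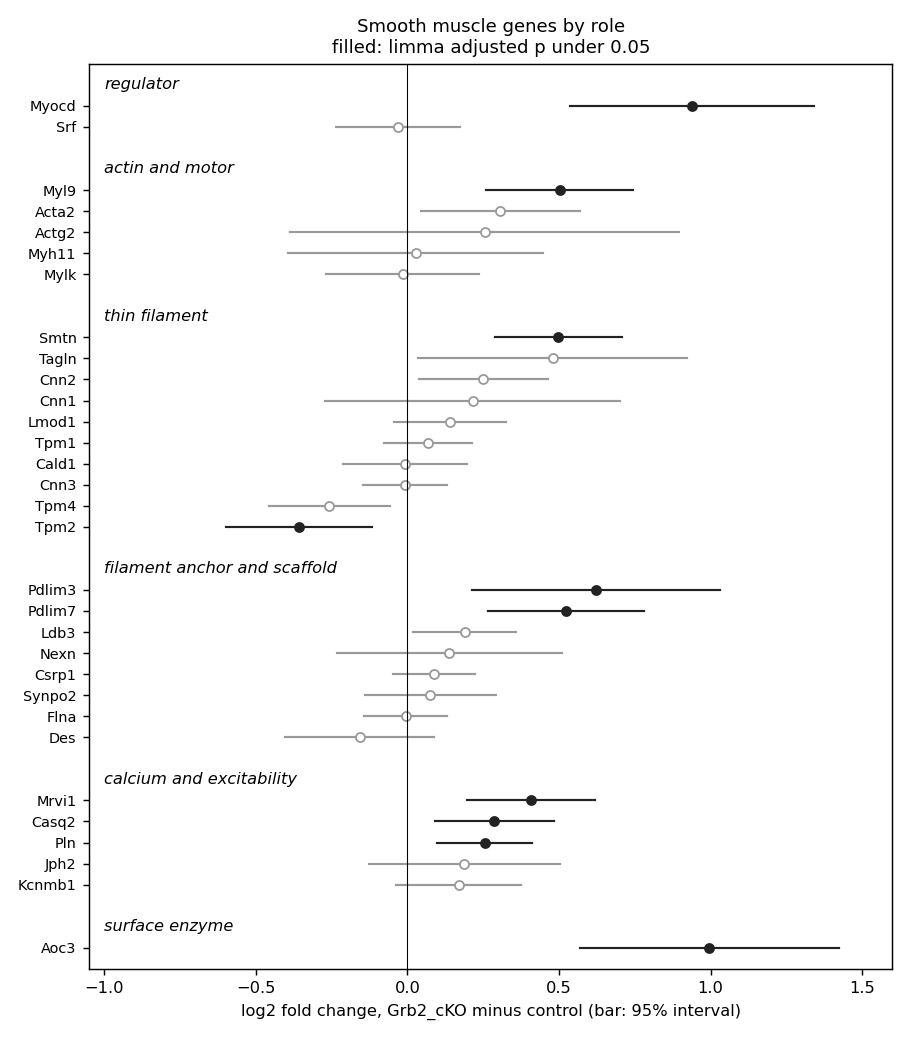
Log2 fold change of each of the 31 genes (x axis, Grb2_cKO minus control) with its 95% interval from limma, grouped by role; filled points passed the adjusted threshold of 0.05. Myocd and Aoc3 lie farthest to the right, at 0.94 and 1.0, while Srf, Mylk, Myh11, Cnn3, Cald1 and Flna sit within 0.04 of 0.

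Of the 2 transcriptional regulators Myocd rose and Srf did not pass; the difference between their changes was not tested. Myocd, the coactivator, was at 9.77, 9.25, 9.97 and 9.47 in Grb2_cKO replicates 1 to 4 and at 8.71, 8.73, 8.99 and 8.28 in control replicates 1 to 4. Every Grb2_cKO kidney was above every control, and the gene rose 1.92-fold (log2 fold change 0.94, SE 0.18, 95% interval 0.54 to 1.34, adjusted p = 0.0036, n = 4 per group). With the Y-linked covariate it stood at 0.63 and did not pass (adjusted p = 0.224). Srf, the DNA-binding partner, was at 9.85, 9.68, 9.70 and 9.76 in Grb2_cKO and at 9.59, 9.69, 9.86 and 9.97 in controls. The groups overlapped, and the log2 fold change was -0.03 with a 95% interval of -0.24 to 0.17 (adjusted p = 0.848), or -0.12 with the Y-linked covariate.

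Since SRF acts through CArG boxes, the promoter windows of the genes were searched for them, and 5 are shown. Srf, Myl9, Cnn2 and Ldb3 hold the box itself. Acta2 was added as an example of a close variant, which Jph2 and Pdlim3, not shown, hold as well. The windows run from 250 bases before to 50 bases after a gene's start, from RefSeq (GRCm38.p6), and 25 of the 31 genes are in that table; Actg2, Aoc3, Myh11, Myocd, Nexn and Tagln had no entry. The strict box is CC and GG around 6 bases that are each A or T, which reads the same on both strands. The capitals mark it, and in Acta2 they mark boxes with 1 other base in the core.
Srf (chr17:46556113-46556412, minus strand): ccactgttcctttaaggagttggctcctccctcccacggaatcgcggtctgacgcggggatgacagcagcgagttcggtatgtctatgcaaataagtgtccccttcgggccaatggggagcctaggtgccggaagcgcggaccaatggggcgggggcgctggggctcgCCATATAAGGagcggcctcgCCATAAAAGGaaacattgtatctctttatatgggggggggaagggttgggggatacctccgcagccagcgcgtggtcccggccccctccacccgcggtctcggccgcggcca
Myl9 (chr2:156775214-156775513, plus strand): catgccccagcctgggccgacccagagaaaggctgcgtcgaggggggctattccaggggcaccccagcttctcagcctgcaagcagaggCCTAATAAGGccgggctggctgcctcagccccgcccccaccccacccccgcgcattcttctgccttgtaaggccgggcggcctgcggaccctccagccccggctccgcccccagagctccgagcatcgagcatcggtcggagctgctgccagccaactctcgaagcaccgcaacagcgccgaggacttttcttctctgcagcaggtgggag
Cnn2 (chr10:79988350-79988649, plus strand): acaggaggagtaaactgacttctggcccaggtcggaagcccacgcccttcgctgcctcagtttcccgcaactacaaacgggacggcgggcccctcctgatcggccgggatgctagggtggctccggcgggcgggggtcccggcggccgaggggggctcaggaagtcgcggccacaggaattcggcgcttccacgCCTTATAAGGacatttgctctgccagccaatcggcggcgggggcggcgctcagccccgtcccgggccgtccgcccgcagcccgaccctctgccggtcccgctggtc
Ldb3 (chr14:34588632-34588931, minus strand, one of the gene's 2 windows): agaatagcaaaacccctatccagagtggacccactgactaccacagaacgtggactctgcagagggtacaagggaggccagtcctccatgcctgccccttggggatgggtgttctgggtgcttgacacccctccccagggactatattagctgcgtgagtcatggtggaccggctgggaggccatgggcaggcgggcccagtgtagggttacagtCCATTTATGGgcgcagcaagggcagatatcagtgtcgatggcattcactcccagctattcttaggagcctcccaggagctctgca
Acta2 (chr19:34255324-34255623, minus strand): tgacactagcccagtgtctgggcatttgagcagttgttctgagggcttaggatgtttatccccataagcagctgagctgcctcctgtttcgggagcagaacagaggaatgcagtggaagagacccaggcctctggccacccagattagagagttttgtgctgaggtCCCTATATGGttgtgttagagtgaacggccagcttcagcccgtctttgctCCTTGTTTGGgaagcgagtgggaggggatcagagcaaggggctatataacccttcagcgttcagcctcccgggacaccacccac

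Strict boxes stood in 4 of the 25 genes with a window (16.0%), beside 1.81% of all 27025 genes in the table and 1.63% of its 32851 windows. Srf had 2 of them, beginning 82 and 62 bases before its start. Myl9 had 1 at 161 bases, Cnn2 1 at 56 and Ldb3 1 that begins 35 bases before one of its starts and 109 before the other. Of these 4 genes Myl9 rose, while Srf, Cnn2 and Ldb3 did not pass. Boxes with 1 other base stood in Acta2, with 2 at 84 and 34 bases before the start, Jph2, Myl9 and Pdlim3, also 4 of 25 (16.0%), beside 9.69% of all genes in the table and 8.5% of its windows. Of those, Myl9 and Pdlim3 rose. A box is a match of letters, and it says nothing of whether SRF was bound there. Boxes outside the windows were not searched for. The genes were listed as a program of SRF and myocardin, so the share with a box is not independent of that choice.

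Of the actin and myosin genes Myl9 rose. Myl9, the regulatory light chain that the kinase phosphorylates, was at 10.24, 10.10, 10.47 and 10.53 in Grb2_cKO and at 9.72, 9.75, 9.99 and 9.89 in controls. No Grb2_cKO value reached down to the controls, and Myl9 rose 1.42-fold (log2 fold change 0.50, SE 0.11, adjusted p = 0.0067). Myl9 stood at 0.35 under the Y-linked covariate (adjusted p = 0.29). Acta2, the actin isoform typical of vascular and ureteric smooth muscle, was at 10.65, 10.42, 10.81 and 10.97 against 10.43, 10.40, 10.54 and 10.25. Grb2_cKO replicate 2 lay among the controls and the other 3 above them, and Acta2 did not pass at 0.31 (95% interval 0.05 to 0.57, adjusted p = 0.0804). Without that embryo Acta2 passed, at 0.40 (adjusted p = 0.0174), the only such fit of the 8 in which it did.

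Actg2, the actin isoform of visceral smooth muscle, was at 6.83, 6.16, 7.35 and 7.27 in Grb2_cKO and 6.87, 6.52, 7.13 and 6.05 in controls, with a range of 1.19 and 1.08 log2 units and overlap of the groups. Its log2 fold change was 0.25 with an interval of -0.39 to 0.90 (adjusted p = 0.584). Myh11, the smooth muscle myosin heavy chain and a marker of the differentiated cell, was at 7.47, 7.05, 7.89 and 7.75 against 7.67, 7.64, 7.64 and 7.10. The groups overlapped there too, and the log2 fold change was 0.03 with an interval of -0.39 to 0.45 (adjusted p = 0.938). Mylk, the light chain kinase, was at 8.78, 8.90, 8.99 and 9.29 against 8.93, 9.18, 8.99 and 8.91, again with overlap, and its difference of -0.02 had an interval of -0.27 to 0.23. With the Y-linked covariate Acta2 stood at 0.175, Actg2 at -0.23 and Myh11 at -0.09, and none of the 3 passed (limma). Of the 5 genes of actin and motor, 1 rose (20%, beside 13.7% of all genes) and 4 did not pass, with a median of 0.25. The probe sequences were not used here, so signal shared between the closely similar actin genes was not tested.

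**Figure D2:**
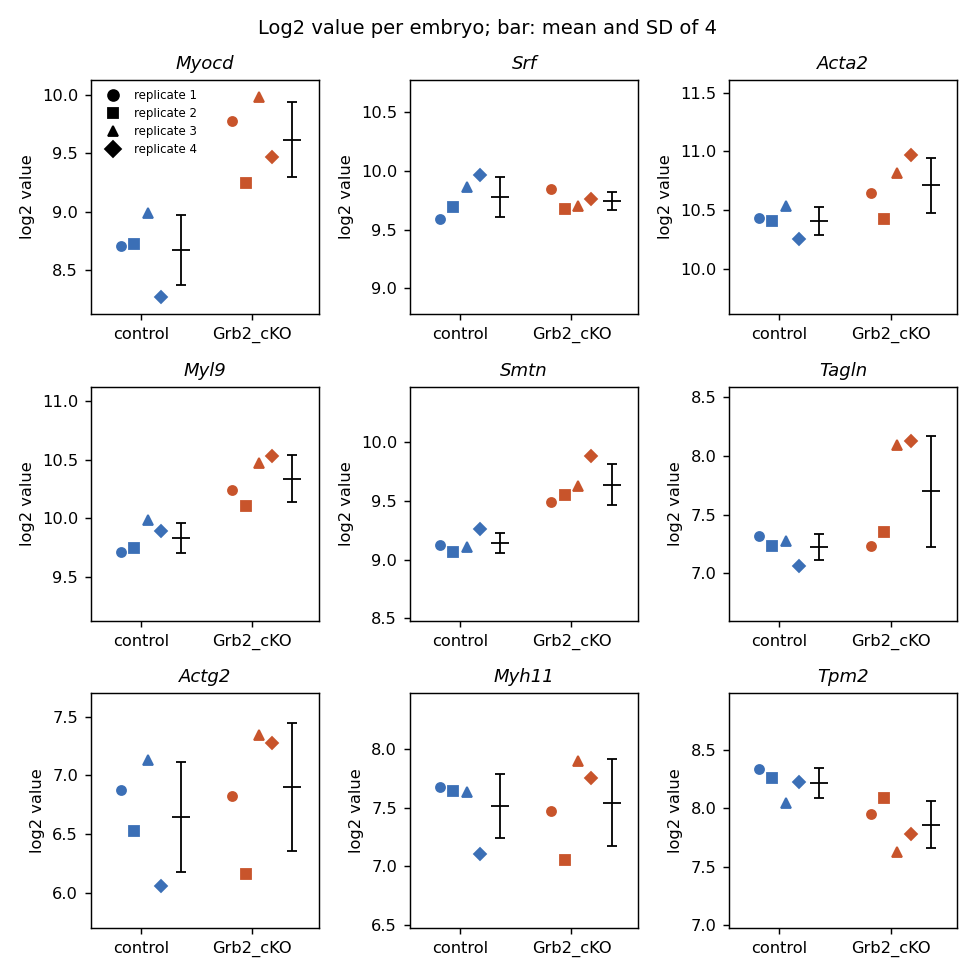
Log2 value of 9 of the genes in each embryo (points; shapes mark the replicate number, which pairs nothing between the groups), with the mean and SD of 4 embryos beside each group; every panel spans 2 log2 units. Myocd, Myl9 and Smtn separate the groups, Srf does not, and for Tagln Grb2_cKO replicates 3 and 4 stand apart from the other kidneys.

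Among the 10 genes of thin filament proteins, Smtn rose and Tpm2 fell, a called share of 20% beside 28.1% of all genes. Smtn, which encodes smoothelin, an actin-binding protein of contractile smooth muscle, was at 9.49, 9.55, 9.62 and 9.89 in Grb2_cKO and 9.13, 9.06, 9.11 and 9.26 in controls. The groups were apart, with a log2 fold change of 0.50 (SE 0.09, adjusted p = 0.0034), and a dimmer second probe set of the gene differed by 0.23 in the same direction. Smtn stood at 0.53 under the Y-linked covariate (adjusted p = 0.0928). Tpm2, beta-tropomyosin, was at 7.95, 8.08, 7.62 and 7.78 against 8.34, 8.26, 8.04 and 8.22. All but Grb2_cKO replicate 2 were below the controls, and Tpm2 fell by 0.36 (SE 0.11, adjusted p = 0.0331), or by 0.18 with the covariate (adjusted p = 0.61). That call was lost without Grb2_cKO replicate 3 or 4 or without control replicate 1, 2 or 4, with adjusted p from 0.0643 to 0.0871.

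Neither of the other tropomyosins passed. Tpm4, a tropomyosin of many non-muscle cells, was at 11.39, 11.48, 11.26 and 11.20 against 11.78, 11.53, 11.55 and 11.50. The groups were apart by a narrow gap, yet the difference of -0.26 did not pass (adjusted p = 0.0573). Its second probe set differed by -0.30, and with the mean of both probe sets Tpm4 passed at -0.28 (adjusted p = 0.026). It also passed without Grb2_cKO replicate 2, at -0.31 (adjusted p = 0.0376), the only such fit of the 8. Tpm4 did not pass with quantile normalization, at -0.21 (limma adjusted p = 0.119), or with the Y-linked covariate, at -0.22 (limma adjusted p = 0.476). Tpm1, alpha-tropomyosin, lay between 9.73 and 9.95 in all 8 kidneys (log2 fold change 0.07, interval -0.08 to 0.21). A probe set reads the gene here, so the smooth muscle and other isoforms of a tropomyosin gene were not told apart.

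Tagln, which encodes the actin-associated protein SM22-alpha and is an early marker of the lineage, had the largest ratio of the SD in Grb2_cKO to that in controls among the 31 genes, 4.20. It was at 7.24, 7.35, 8.09 and 8.12 in Grb2_cKO, against 7.32, 7.24, 7.27 and 7.06 in controls. Replicates 3 and 4 stood above every control and replicates 1 and 2 lay in or just above the control range, with an SD of 0.47 against 0.11. The log2 fold change of 0.48 had an interval of 0.04 to 0.92 and did not pass (adjusted p = 0.104). Of the 8 fits that leave out 1 embryo, Tagln passed only without Grb2_cKO replicate 1, at 0.63 (adjusted p = 0.0302). With the Y-linked covariate it stood at 0.43 and did not pass (limma adjusted p = 0.537). The calponins bind actin and restrain the myosin ATPase. Cnn1, the smooth muscle calponin, was at 7.63, 7.22, 8.26 and 7.95 against 7.77, 7.56, 7.75 and 7.12, with overlap and a difference of 0.21 (interval -0.27 to 0.70), or 0.02 with the Y-linked covariate. Cnn2, found in many cell types, stood at 0.25 (interval 0.04 to 0.46, adjusted p = 0.0806; 0.08 with the covariate), and Cnn3 at -0.01, with all 8 values between 13.02 and 13.18.

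Cald1 (caldesmon, another brake on actin and myosin) and Lmod1 (leiomodin, which nucleates actin filaments in smooth muscle) did not pass either. Cald1 stood at -0.01 (interval -0.21 to 0.20) and Lmod1 at 0.14 (interval -0.04 to 0.33), and with the Y-linked covariate at 0.13 and 0.07. The median log2 fold change of the 10 thin filament genes was 0.10.

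Of the 8 genes of filament anchors and scaffolds, 2 rose (25%, beside 13.7% of all genes) and 6 did not pass, with a median of 0.11. Both that rose encode proteins with PDZ and LIM domains that associate with the actin cytoskeleton. Pdlim7 was at 9.32, 9.23, 9.24 and 9.55 in Grb2_cKO and 8.60, 8.69, 8.90 and 9.06 in controls, with no overlap (log2 fold change 0.52, SE 0.12, adjusted p = 0.0075; 0.43 with the Y-linked covariate, adjusted p = 0.239). Pdlim3 was at 8.45, 8.11, 9.04 and 8.26 against 7.91, 8.01, 7.86 and 7.59. The groups were apart and replicate 3 was the highest Grb2_cKO kidney, with a log2 fold change of 0.62 (SE 0.18, adjusted p = 0.0295; 0.62 with the covariate, adjusted p = 0.296). The Pdlim3 call was lost without Grb2_cKO replicate 1 or control replicate 1, 3 or 4, with adjusted p from 0.0555 to 0.0749.

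The third PDZ and LIM gene, Ldb3, did not pass at 0.19 (values 6.25, 6.13, 6.31 and 6.24 against 6.09, 5.91, 6.02 and 6.16, adjusted p = 0.0947). Csrp1, a LIM-only protein of smooth muscle, was at 11.69, 11.59, 11.61 and 11.59 against 11.53, 11.57, 11.52 and 11.50; the groups did not overlap, but the difference of 0.09 was small and did not pass (adjusted p = 0.334). Des, the intermediate filament protein desmin, was at 9.85, 9.87, 9.46 and 9.80 against 9.88, 9.79, 9.82 and 10.11. Its difference, -0.16, pointed lower, with Grb2_cKO replicate 3 the lowest kidney (interval -0.40 to 0.09; -0.08 with the Y-linked covariate). Flna (filamin A, an actin crosslinker of most cells), Synpo2 (synaptopodin-2, of the dense body and Z-disc) and Nexn (nexilin) stood at -0.01, 0.07 and 0.14, with intervals of -0.14 to 0.13, -0.14 to 0.29 and -0.23 to 0.51. With the covariate they stood at -0.03, -0.03 and 0.47, and none of the 3 passed (limma).

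The genes of calcium handling and excitability all had positive differences, as did 51% of all genes. Of these 5 genes 3 rose (60%, beside 13.7% of all genes called higher), with a median of 0.26. Mrvi1 encodes IRAG, which lets cGMP-dependent kinase restrain calcium release from the inositol trisphosphate receptor. It was at 8.71, 8.80, 8.76 and 9.02 in Grb2_cKO and 8.53, 8.50, 8.23 and 8.41 in controls, without overlap (log2 fold change 0.41, SE 0.09, adjusted p = 0.0094). Pln, phospholamban, the inhibitor of the sarcoplasmic calcium pump, was at 6.15, 6.12, 6.03 and 6.10 against 5.83, 5.97, 5.75 and 5.83. The groups were apart by a small step of 0.26 (SE 0.07, adjusted p = 0.0212; 0.35 with the Y-linked covariate, adjusted p = 0.11), which did not pass without Grb2_cKO replicate 1 (adjusted p = 0.055) or control replicate 3 (0.0635).

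Casq2, the calcium store protein calsequestrin-2, was at 5.86, 5.98, 5.77 and 6.09 against 5.75, 5.60, 5.69 and 5.51. It rose by 0.29 (SE 0.09, adjusted p = 0.0349; 0.23 with the covariate, adjusted p = 0.437), and the call was lost without Grb2_cKO replicate 2 or 4 or control replicate 2, 3 or 4, with adjusted p from 0.0549 to 0.0889. Pln and Casq2 were dim, below the arrays' medians in every kidney, and no detection calls were used here. Kcnmb1, the smooth muscle beta subunit of the large-conductance calcium-activated potassium channel, stood at 0.17 (interval -0.04 to 0.38), and Jph2, junctophilin-2, which joins the plasma membrane to the calcium store, at 0.19 (interval -0.13 to 0.50; 0.36 with the covariate). Neither passed.

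Aoc3, the surface amine oxidase of smooth muscle and endothelium, had the largest difference of the 31 genes. It was at 7.11, 7.21, 7.64 and 8.06 in Grb2_cKO and 6.38, 6.64, 6.67 and 6.35 in controls. All Grb2_cKO kidneys were above the controls, replicates 3 and 4 most, and Aoc3 rose 2.0-fold (log2 fold change 1.0, SE 0.19, adjusted p = 0.0037). In every control Aoc3 was dim, below the array's median, and no detection calls were used here. It stood at 0.82 under the Y-linked covariate (adjusted p = 0.169). Endothelial markers moved with it: 6 of 9 rose (66.7%, beside 13.7% of all genes called higher). The average of these markers per kidney ran from 9.83 to 9.92 among controls and from 10.1 to 10.4 among Grb2_cKO. Their part in the Aoc3 difference was not tested.

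**Figure D3:**
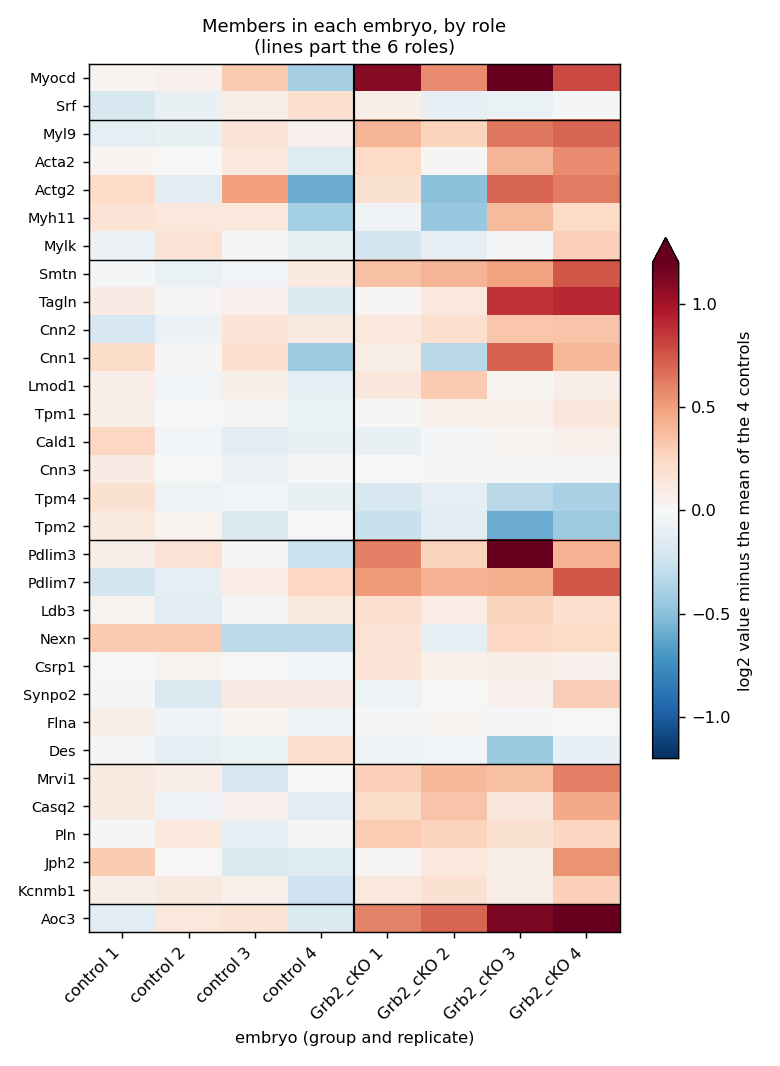
Log2 value of each of the 31 genes in each embryo minus the mean of the 4 controls (colour; red higher, blue lower), with genes in rows by role and embryos in columns. The red block at the right covers Myocd, Aoc3, Pdlim3, Pdlim7, Myl9 and Smtn in all 4 Grb2_cKO kidneys, while Actg2, Myh11 and Cnn1 are lowest in control replicate 4 and Grb2_cKO replicate 2.

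To compare the coactivator with its classical contractile targets, Myocd was set against 6 of them within each embryo. None of the 6 passed in the comparison of the groups. Myl9 and Smtn, which rose by 0.50 each, were not among them, and the genes were chosen with earlier results of these data known. On the scale of the log2 probe-set values, Myocd changed more than Acta2, Myh11, Cnn1 and Mylk. Its log2 value minus that of Myh11 was 2.30, 2.19, 2.08 and 1.72 in Grb2_cKO and 1.03, 1.09, 1.36 and 1.17 in controls. All 4 Grb2_cKO kidneys lay above the controls, and the fold changes differed by 0.91 on the log2 scale (two-sided exact permutation p = 0.0286, the smallest that 70 assignments allow; adjusted p = 0.0429 over the 6 pairs). The same exact test gave these p-values for Mylk, Cnn1 and Acta2, with differences of 0.96, 0.72 and 0.63. For Acta2 the gap was narrow: the lowest Grb2_cKO kidney was at -1.50 and the highest control, replicate 3, at -1.54. For all 4 of these genes the highest control was replicate 3, the control with Y-linked signal, and the pairs were not tested with the Y-linked covariate.

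Against Actg2 and Tagln the larger change of Myocd did not pass. The difference from Actg2 was 0.69 (exact permutation p = 0.0857, adjusted p = 0.103), with Grb2_cKO replicate 4 at 2.19, inside the control range of 1.83 to 2.22. The difference from Tagln was 0.46 (exact permutation p = 0.114, adjusted p = 0.114), and again replicate 4, at 1.34, lay among the controls. The 6 pairs share the Myocd values, so they are not independent. A difference within an array shows unequal change of probe-set values rather than that one gene stayed still. The probe sets also differ in brightness: over all arrays Myocd averaged 9.15, Acta2 10.56, Myh11 7.53 and Actg2 6.77. Whether they respond alike to a change of RNA was not tested. With any 1 embryo left out the smallest possible p is 0.0571, so no pair could pass. The differences then stayed positive for each of the 6 genes, but that from Tagln was 0.25 without Grb2_cKO replicate 1.

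**Figure D4:**
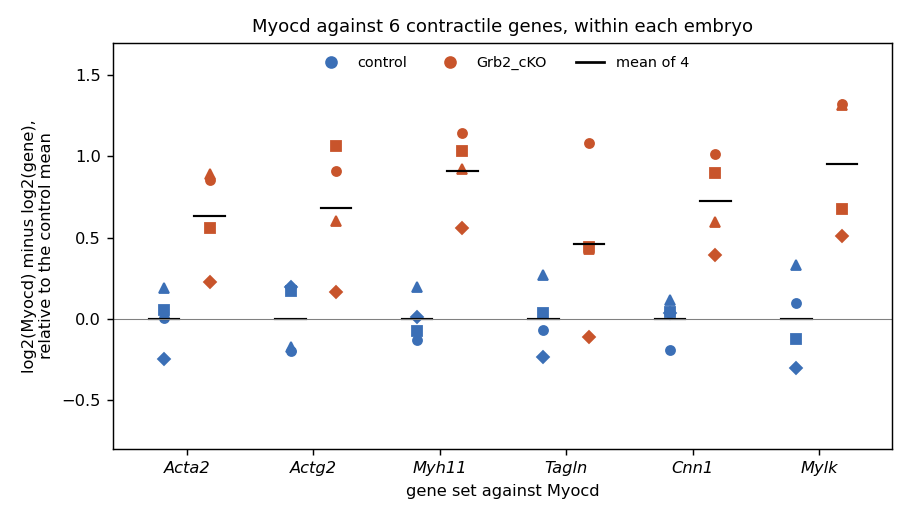
Log2 value of Myocd minus that of each of 6 contractile genes in each embryo, relative to the control mean (y axis, log2 units; blue control, orange Grb2_cKO, shapes mark replicates as in the plot of values per embryo, black bar the mean of 4). The mean Grb2_cKO difference runs from 0.46 for Tagln to 0.96 for Mylk, and the groups do not overlap for Acta2, Myh11, Cnn1 and Mylk.

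The 6 contractile genes also varied between kidneys of 1 group. Over them, control replicate 4 was the lowest control every time, and in Grb2_cKO the lowest was replicate 2 for 4 genes and replicate 1 for 2. Grb2_cKO replicates 3 and 4 were the highest for 3 genes each. The median deviation from the group mean was -0.29 in control replicate 4, -0.42 in Grb2_cKO replicate 2 and 0.37 in Grb2_cKO replicate 3. For Actg2, Myh11 and Cnn1 the range within Grb2_cKO, at 1.19, 0.84 and 1.03, was larger than the difference between the groups. Whether the dissected tissue held more or less ureter or vessel wall in some kidneys was not tested.

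Other genes of the pathway, from lists outside the 31, are given by counts. Of 14 SRF cofactors and partners 8 rose (57.1%, where 13.7% of all genes were called higher) and none fell (median log2 fold change 0.33). Those of smallest p were Klf4, a repressor of smooth muscle differentiation, at 1.13 (SE 0.10), Gata6 at 0.74 (SE 0.08), Tead3 at 0.69 (SE 0.09) and Mef2c at 0.60 (SE 0.08), with 0.000524, that of Mef2c, the highest limma adjusted p among the 4. The myocardin-related coactivators, named after their values were seen, rose too. Mrtfa was at 9.05, 9.33, 9.30 and 9.52 in Grb2_cKO against 8.56, 8.69, 8.80 and 8.86 in controls (0.57, SE 0.11, adjusted p = 0.0031), and Mrtfb differed by 0.24 (SE 0.06, adjusted p = 0.013). Under the Y-linked covariate 3 of the 14 were called, Klf4 (0.97), Gata6 (0.77) and Mef2c (0.66), while Tead3 (0.55, adjusted p = 0.0566), Mrtfa (0.49, adjusted p = 0.148) and Mrtfb (0.29, adjusted p = 0.133) were not.

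Of 14 genes that pattern the ureteric mesenchyme and induce its muscle, 5 rose (35.7%, against the same 13.7%) and none fell (median 0.24, or 0.05 with the Y-linked covariate). Tbx18, a transcription factor of ureteric mesenchyme, stood at 10.4 ± 0.26 against 9.24 ± 0.18 (SD, n = 4; 2.18-fold), and Tshz3, needed for ureteric smooth muscle to form, rose by 0.81 (SE 0.06; 1.75-fold). The Hedgehog transducer Smo and the ligand Bmp4 rose by 0.28 (SE 0.08) and 0.30 (SE 0.09). This count moved with the processing: it was 8, 7 higher and 1 lower, with a trended robust spread, 3 with centred arrays, and 2 without Grb2_cKO replicate 2 or 3 or without control replicate 1, 2 or 3. One lower call also appeared without Grb2_cKO replicate 1 or 4. The covariate left 2 calls, Tbx18 (0.96) and Tshz3 (0.76), with Smo at 0.33 (adjusted p = 0.223) and Bmp4 at 0.22 (adjusted p = 0.495).

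Of 14 SRF targets that are not muscle genes 1 rose and 3 fell (median 0.03), a called share of 28.6% that was near the 28.1% of all genes. Filip1l rose by 0.36 (SE 0.07), and Myh9, the non-muscle myosin heavy chain, the cytoplasmic actin gene Actg1 and the immediate early gene Ier2 fell by 0.53 (SE 0.08), 0.47 (SE 0.13) and 0.31 (SE 0.08). Under the Y-linked covariate limma called 0 of them (Filip1l stood at 0.24, Myh9 at -0.45, Actg1 at -0.32 and Ier2 at -0.37), with 2 at an unadjusted p under 0.05, and 2 passed without Grb2_cKO replicate 3. In contraction signalling 4 of 16 measured genes rose and 2 fell (median 0.03), a called share of 37.5% beside 28.1% of all genes, and 25% called higher beside 13.7%. Kcnma1, the pore subunit that Kcnmb1 accompanies, rose 2.67-fold (log2 fold change 1.42, SE 0.11), and whether the 2 subunits changed unequally was not tested. The calcium channel gene Cacna1c rose by 0.57 (SE 0.08) and the caveolar genes Cavin1 and Cav1 by 0.48 (SE 0.08) and 0.49 (SE 0.10). The covariate left 1 call, Kcnma1 (1.33, adjusted p = 0.0088), with Cacna1c at 0.49, Cavin1 at 0.54 and Cav1 at 0.22.

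**Figure D5:**
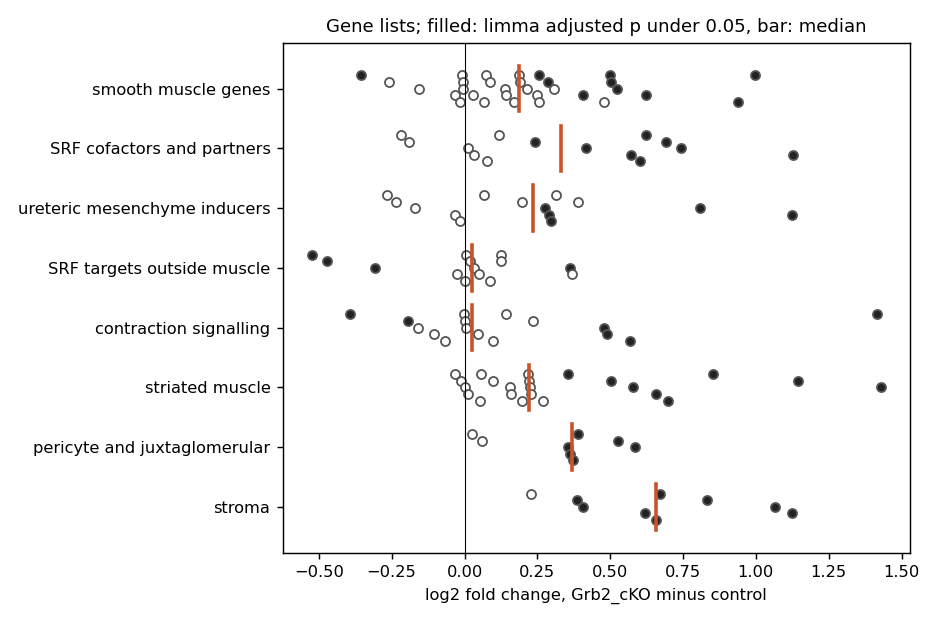
Log2 fold change (x axis, Grb2_cKO minus control) of each gene of the smooth muscle program, of 4 pathway lists and of 3 marker lists of other cell types; filled points passed the adjusted threshold of 0.05 and the orange bar is the list's median. The medians run from 0.03 for the non-muscle SRF targets and contraction signalling to 0.66 for stroma, with the smooth muscle genes at 0.19.

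Markers of neighbouring cell types moved in the same comparison, in which 13.7% of all genes were called higher and 14.3% lower. Pericyte and juxtaglomerular markers, of cells that share Acta2, Tagln and Myl9 with smooth muscle, rose for 6 of 8 measured genes, and averaged 9.37 to 9.45 in control kidneys against 9.66 to 9.87 in Grb2_cKO. Among them Abcc9 and Kcnj8, subunits of a vascular potassium channel, rose by 0.53 and 0.58. Stromal markers rose for 8 of 9 genes (mean 10.5 to 10.7 in controls and 11.2 to 11.4 in Grb2_cKO), with Foxd1 at 1.07 and Postn at 0.83. Striated muscle markers, whose cells share Des, Casq2, Jph2, Ldb3, Nexn and Pdlim3 with smooth muscle, rose for 8 of 23 genes (mean 6.34 to 6.41 against 6.66 to 6.80), among them Actc1 by 1.43, Myl1 by 1.15, Myh3 by 0.85 and Ttn by 0.70. Of the defining regulators of skeletal muscle, named after their values were seen, Myog and Myod1 rose by 0.58 and 0.35. Myf5 and Myf6 did not pass, at 0.01 and 0.23. Myod1 was dim, at 5.83 to 6.52 and below the array's median in every kidney, and its groups overlapped. Myh3 and Ttn were dim as well, below the array's median in every kidney but Grb2_cKO replicate 4. Under the Y-linked covariate neither Myog nor Myod1 passed (limma adjusted p = 0.150 and 0.145). Ureteric epithelium markers averaged 9.72 to 9.81 among controls and 8.59 to 8.95 among Grb2_cKO kidneys, and 7 of 9 fell, with Ret at -2.46 and Calb1 at -3.53. Macrophage markers (7 of 9) and erythroid markers (5 of 6 measured) rose, 5 of 6 nephron progenitor markers fell, and of 6 kidney lineage genes 4 fell and 1 rose. With the Y-linked covariate fewer markers passed, beside 5.62% of all genes. They were 3 of 9 stromal markers, Foxd1 and Postn among them, and 3 of 23 striated muscle markers (Actc1, Myl1 and Ttn). In ureteric epithelium 4 of 9 passed, Ret and Calb1 among them, and 4 of 9 macrophage markers did. Of 6 genes in each list, 1 erythroid marker, 2 nephron progenitor markers and 1 kidney lineage gene passed. The limma count was 0 for pericyte markers (Abcc9 at 0.53, adjusted p = 0.0728, and Kcnj8 at 0.72, adjusted p = 0.0547) and for endothelial markers, of which 2 of 8 and 5 of 9 were at an unadjusted p under 0.05. The part of these cell types in the differences of the smooth muscle genes was not tested.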

How the data were processed

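Total RNA from the pooled kidneys of each of 8 embryos was labelled with biotin and hybridised to 1-colour arrays, per the labels' protocols. The authors deposited 1 log2 value per probe set and array, from 1.25 to 14.08; Transcriptome Analysis Console is named in the submitters' processing notes, and background correction and normalization are not stated in these sources. The deposited log2 values were used as they stand. Of 41345 probe sets, 23521 carried 1 gene symbol, 1814 several and 16010 none; 23328 symbols were updated through Entrez IDs. Of the probe sets with 1 symbol, the one with the highest mean over the 8 arrays stood for a gene, which gave 22180 genes; 1082 had more than 1 probe set.

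Grb2_cKO and control were compared with lmFit and eBayes (limma 3.58.1, R 4.3.3) over all genes, with Benjamini-Hochberg adjustment and a threshold of 0.05, and the fit was tested on simulated data. Myocd was compared with 6 genes with an exact permutation test, two-sided, that enumerates the 70 ways to assign the embryos. Alternatives were quantile normalization, centred arrays, dim genes left out (the lowest 25%), the mean of probe sets, a trended robust spread, array weights, the Y-linked mean as covariate, a threshold of 0.01 and each embryo left out. Named genes were all 31, Grb2, the Y-linked genes and up to 4 genes of smallest p per list; others are said to be chosen after their values were seen. The members and lists were chosen with earlier results of these data known. Embryos, 4 per group of 1 litter, were the replicates, and their number limits the precision. Promoter windows were searched with Python 3.11.15.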

Additional observations from a re-analysis of the deposited data

Results flagged for a closer look

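In 3 of 62 groups of 4 values (31 genes in 2 groups) 1 embryo stood apart from the others by Dixon's criterion, where chance alone gives about 1 in 20. Myh11 in control replicate 4 was at 7.10, with the other controls between 7.64 and 7.67. Kcnmb1 in the same embryo was at 6.56, with the others between 6.87 and 6.92. Des in Grb2_cKO replicate 3 was at 9.46, with the others between 9.80 and 9.87. None of the 3 genes passed the threshold with all embryos or with any 1 embryo left out.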

How the results depend on the processing

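Of the 31 genes, 11 passed with quantile normalization, centred arrays, dim genes left out, the mean of probe sets or array weights. With a trended robust spread 13 passed, and all 10 calls were kept under each of these. The shares of all genes called were, in that order, 28.1%, 25.7%, 40.3%, 27.5%, 29.7% and 30.4%. At an adjusted p of 0.01, 6 genes passed, with 3809 of all genes (17.2%). With the Y-linked mean as covariate the counts were 1 and 1246 (5.62% of all genes), with 5 of the 31 at an unadjusted p under 0.05. With control replicate 3 as the only control, chosen after seeing the data and assuming that it varies like the other group, limma called 0 of the 31 (5 at an unadjusted p under 0.05) and 285 of all genes. Leaving out 1 embryo gave 7 to 11 of the 31 genes, beside 22.1% to 26.8% of all genes. The Myocd differences then ran from 0.55 to 0.77 for Acta2, 0.84 to 1.03 for Myh11, 0.63 to 0.84 for Cnn1 and 0.83 to 1.10 for Mylk, and none could pass because 4 against 3 embryos cannot go below 0.0571. No paired analysis was possible because the labels give no replicate numbers that pair embryos. Dim probe sets such as Pln and Casq2 cannot be told from background without detection calls.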
